A study of Mus musculus with 48 samples.

Results

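Among the mice that drank corticosterone and ate the control diet, 3 carried a low insulin value and 11 a high one, and the muscle RNA of these 2 sets was compared. The members are the 14 libraries labelled Cort_CON, of 48 libraries in the series. They were divided by the insulin value in the sample labels, below 20 (title numbers p32, p33 and p34) or above 20 (the other 11), so no RNA measurement chose them. All 14 mice were male C57BL6J, had corticosterone at 100 ug/ml in the drinking water for 2 weeks and ate Teklad 8640 diet without drug. The tissue was mixed gastrocnemius, a calf muscle made mostly of fast fibres, and RNA was read from the 3′ end of transcripts with a Quant-Seq kit. Age, the time of tissue collection, caging and the units of insulin and glucose are not given in the labels. Vehicle mice (EtOH_CON, 1% ethanol in the water, same diet, 10 libraries) serve below as a reference level. Cort_ATGLi mice had the same corticosterone concentration in the water. Their diet carried atglistatin at 571 mg/kg, which blocks the lipase ATGL that opens triglyceride breakdown. Those mice were divided at the same insulin value into 9 low and 5 high libraries, none of which is on either side of the Cort_CON comparison. EtOH_ATGLi mice (vehicle water and the atglistatin diet, 10 libraries) complete the series. All 48 libraries were fitted together, so every group adds to the estimate of spread.

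The adrenal hormone corticosterone acts in mice as cortisol does in people. In muscle, glucocorticoids bind a nuclear receptor that raises genes of protein breakdown, amino acid release and fat use, and they oppose the action of insulin; the pancreas usually answers with more insulin. Insulin works through its receptor, the adaptor proteins Irs1 and Irs2, and the kinase Akt to move the glucose transporter Slc2a4 (GLUT4) to the fibre surface, to raise genes of fat synthesis through Srebf1, and to keep FoxO transcription factors out of the nucleus. FoxO factors, when in the nucleus, raise the ubiquitin ligases Trim63 (MuRF1) and Fbxo32 (atrogin-1). Mice given the same corticosterone concentration in the water but carrying different insulin values therefore bear on which muscle genes differ between such mice. Water intake and circulating corticosterone are not among the values used here, so equal exposure to the hormone is not known.

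The low insulin values were 14.5 (p32), 9.31 (p33) and 16.8 (p34). The lowest values above the dividing value were 27.7 (p49) and 29.3 (p45), and the other 9 lay between 36.7 and 39.8. Vehicle mice had 1.19 to 3.46, so the low insulin mice still lay above every vehicle mouse. Fed glucose was 145, 134 and 268 in the low insulin mice (mean 182.3 ± 74.4, SD, n = 3) and 131 to 407, with a median of 266, in the 11 others (mean 260.4 ± 75.9, SD, n = 11). The ranges overlapped, and the difference in mean glucose had an exact permutation p of 0.192 (two-sided; the smallest that 364 assignments allow is 0.0028). By the labels, p34 was diabetic and p32 and p33 were nondiabetic, as against 8 diabetic and 3 nondiabetic mice with high insulin, so disease state and insulin are partly mixed in these data.

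**Figure D1:**
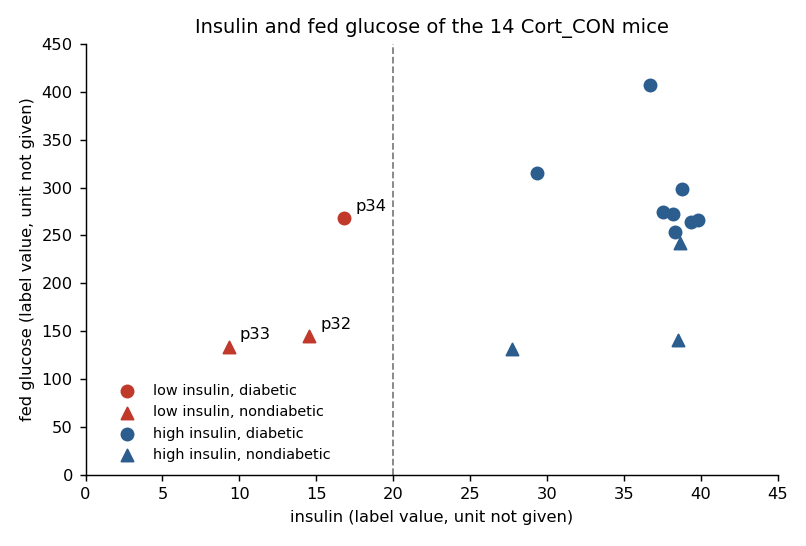
Insulin (x axis) against fed glucose (y axis) for each of the 14 Cort_CON mice, as label values without units; red points are low and blue points high insulin, circles diabetic and triangles nondiabetic, and the dashed line marks 20. The 3 low insulin mice lie between 9.31 and 16.8, and p34 has a glucose of 268 beside 145 and 134 in the other two.

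Total counts per library were 12583686 to 14219778 at low insulin and 10585234 to 22921262 at high insulin (exact permutation p = 0.519, two-sided). Muscle fibre markers were present in all 14 libraries, and 0 of 11 passed the test described below. The 3 low insulin libraries stood apart together: on the second principal component of the 14 libraries (13.4% of the variance) they lay at -38.4, -29.2 and -29.1, and the 11 others between 0.876 and 22.5. The first component (15.8%) ran from -44.5 in p27 to 29 in p45. The 3 low insulin mice also carry consecutive title numbers, and whether that marks a shared cage, litter or day is not given, so such a grouping and insulin cannot be told apart; a comparison with the 5 high insulin libraries of neighbouring numbers (p29, p30, p35, p36 and p37) is therefore given where it matters. Each library was taken as a separate mouse because each has its own glucose and insulin value; the labels do not say so, and p-values measure the spread between these libraries.

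The muscle of the 3 low insulin mice held more transcript of Actc1, Car3 and other genes that lay below the vehicle level at high insulin, more of some genes of fat use and amino acid breakdown, and less of Acly and Thrsp, which act in fat synthesis. Among the genes of fat use and amino acid breakdown, Acads and Bcat2 also had high insulin medians below the vehicle range. At an adjusted p under 0.05 (edgeR's quasi-likelihood test with Benjamini-Hochberg adjustment over 12592 genes), 464 genes differed, 3.68% of those tested. Of these, 269 (2.14%) were higher and 195 (1.55%) lower at low insulin, with 57 and 54 of them at least 2-fold apart. In 210 of the 269 higher genes all 3 low insulin libraries lay above all 11 others, and in 108 of the 195 lower genes all lay below; over all genes tested, 3.06% lay wholly above and 1.4% wholly below. The counts among called genes are raised because those genes were picked for their difference in the same libraries. The median log2 difference over all genes was -0.03. Each low insulin library carried weight in these counts: without p32, 186 genes passed, without p33 247 and without p34 250. Against only the 5 neighbouring title numbers, 134 genes were higher and 103 lower.

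The largest rise was in Actc1, which encodes cardiac alpha-actin, the actin of heart and of developing skeletal muscle. Actc1 stood at 241 (p32), 185 (p33) and 143 (p34) counts per 1000000 of the library total (CPM) at low insulin, against 7.19 to 32.6 with a median of 15.6 at high insulin. The groups did not overlap, and the low insulin libraries lay within or just below the vehicle range of 172 to 344 CPM. The difference was 3.34 on the log2 scale (SE 0.30, edgeR adjusted p = 2.66e-10). Of the 12 named genes with the largest rises, Actc1, Ighm, Dupd1, Car3 and Cbr2 shared this form, low in the high insulin libraries and near or just below the vehicle range at low insulin, or inside it. Car3, carbonic anhydrase III, an abundant enzyme of slow fibres and fat, had 3512, 3917 and 3978 CPM at low insulin, 402 to 1805 at high insulin and 2768 to 4493 in vehicle muscle. Every low insulin library exceeded every high insulin one, by 1.80 on the log2 scale (SE 0.28, edgeR adjusted p = 4.39e-05). Dupd1, a dual specificity phosphatase gene of muscle, had 45.3, 51.9 and 55 CPM against 4.59 to 19.6 with a median of 11 (log2 difference 2.03), with 44.4 to 109 in vehicle muscle. Cbr2, a carbonyl reductase gene, had 78.7, 93.4 and 61.5 CPM against 15.8 to 38.3 with a median of 27.4 (log2 difference 1.49). For both genes the low and high insulin libraries did not overlap.

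A second form of rise went further from vehicle muscle than the high insulin libraries did. Slc39a14, which encodes the zinc importer ZIP14, had 43.7, 31.8 and 34.3 CPM at low insulin, 2.53 to 27.5 at high insulin and 1.5 to 3.39 in vehicle muscle (log2 difference 2.04, SE 0.38, edgeR adjusted p = 0.000512). Its highest value among the high insulin libraries, 27.5, was that of p45 (insulin 29.3), while p49, with the lowest insulin of the 11 (27.7), had 5.53 CPM. Car9, carbonic anhydrase IX, a gene known to answer to low oxygen, had 14.1, 15.2 and 13.1 CPM against 3.75 to 7.26 with a median of 4.80 (log2 difference 1.48). 6430548M08Rik, a gene named after its values were seen because its adjusted p equalled that of Actc1, had 174, 142 and 162 CPM against 28.6 to 66.5 with a median of 38.5, with 8.65 to 14.3 in vehicle muscle (log2 difference 1.96, SE 0.18, edgeR adjusted p = 2.66e-10). Sox4 and Rgs2 rose from a level near that of vehicle muscle. Sox4, which encodes a transcription factor of progenitor cells, had 76.3, 49.8 and 20.7 CPM against 6.39 to 15.1 with a median of 7.96 (log2 difference 2.28), and p34 lay nearest to the high insulin libraries. Rgs2, which encodes a protein that shortens signalling by G proteins, had 88.5, 65 and 66.5 CPM against 13.6 to 34.2 with a median of 21 (log2 difference 1.77), again with no overlap. All 12 of the largest rises passed in each of 14 fits that left out 1 Cort_CON library.

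**Figure D2:**
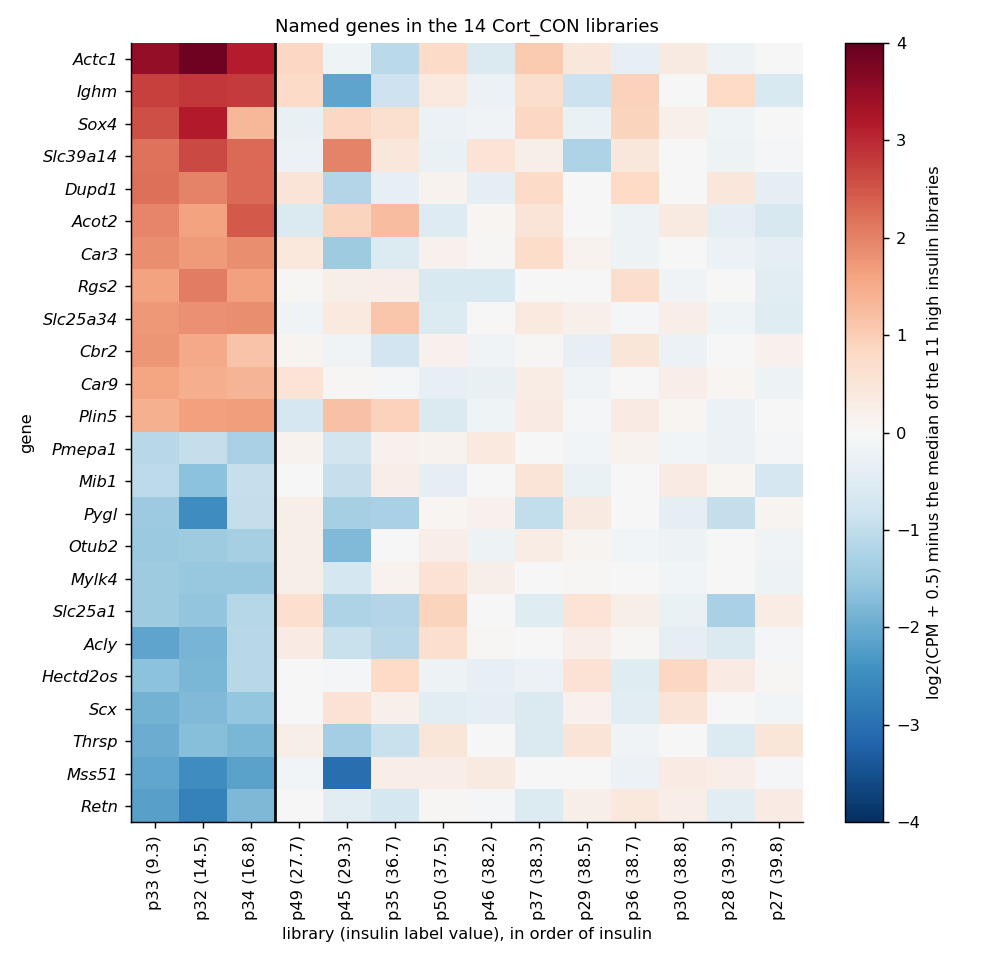
Levels of the 12 named genes with the largest rises and the 12 with the largest falls (rows) in the 14 Cort_CON libraries (columns, ordered by insulin, label value in brackets), as log2(CPM + 0.5) minus the median of the 11 high insulin libraries. The 3 columns left of the black line are red in the upper 12 rows and blue in the lower 12; p45 (29.3) is blue for Mss51, Otub2 and Thrsp and red for Slc39a14 and Plin5.

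Of 32 tested genes of fatty acid uptake and oxidation, 6 were higher and 0 lower at low insulin. That is 18.8% of the list against 3.68% of all genes tested. Of the 32 differences, 30 were positive, and their median was 0.34 against -0.03 over all genes. This list and those below were written with earlier results of these data known, so their shares may not be independent of them. Acot2, a thioesterase that frees fatty acids from coenzyme A inside mitochondria, had 165, 210 and 297 CPM at low insulin and 34.3 to 128 at high insulin, with a median of 53.9. No high insulin library reached the lowest low insulin one, and the difference was 1.83 on the log2 scale (SE 0.30, edgeR adjusted p = 9.24e-05). Lpl, lipoprotein lipase, which releases fatty acids from circulating triglyceride at the capillary wall, had 1250, 957 and 953 CPM against 418 to 709 with a median of 551 (log2 difference 0.91, SE 0.15, edgeR adjusted p = 4.53e-05). Cd36, the fatty acid transporter of the fibre membrane, had 158, 153 and 163 CPM against 99.9 to 150 with a median of 113 (log2 difference 0.40). The oxidation enzymes Acads and Acadvl, dehydrogenases for short and very long acyl chains, rose by 0.47 and 0.41, and Mlycd, which removes the malonyl-CoA that blocks fatty acid entry into mitochondria, rose by 0.54 on the log2 scale. Acads had 55.9, 57 and 60 CPM at low insulin, inside the vehicle range of 44.5 to 71.8, against 33.3 to 46.3 at high insulin. Acadvl had 187 to 211 CPM at low insulin, above the vehicle range of 133 to 180. Acot2 and Lpl passed in each fit that left out 1 library; Cd36, Acads, Acadvl and Mlycd did not pass in some of the fits without p32, p33, p34 or p49 (highest edgeR adjusted p 0.185). Against the 5 neighbouring title numbers, 2 of the 6 passed. Pdk4, the kinase that shuts pyruvate out of oxidation and that corticosterone is known to raise, had 174, 236 and 252 CPM, inside the high insulin range of 25.4 to 386, and did not pass (edgeR adjusted p = 0.851).

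Lipid droplet genes rose in part. Of 17 tested members of the droplet and lipolysis list, 4 were higher and 0 lower (23.5% against 3.68% of all genes), with a median of 0.04. Plin5, the perilipin that ties droplets to mitochondria, had 163, 142 and 169 CPM at low insulin, 32.7 to 118 at high insulin and 11.4 to 20.6 in vehicle muscle. All 3 low insulin libraries lay above all others, and of the high insulin set p45 was the highest, at 118, and p49 the lowest, at 32.7 (log2 difference 1.36, SE 0.24, edgeR adjusted p = 0.000304). Fitm2, which helps droplets bud from the endoplasmic reticulum, had 75.8, 74 and 75 CPM against 45.6 to 55.4 with a median of 50.1 (log2 difference 0.55), and Dgat2, which makes triglyceride, had 72.3, 67.7 and 67.5 against 31.4 to 53.7 with a median of 37.8 (0.73). Cidea, a droplet fusion gene, had 5.56, 3.23 and 3.10 CPM against 0.607 to 2.81 with a median of 1.38 (1.31). Plin5 and Fitm2 passed in each fit that left out 1 library, and Dgat2 and Cidea did not pass without p32, p33 or p34 (highest edgeR adjusted p 0.401). Pnpla2, which encodes ATGL, had 407, 384 and 437 CPM against 192 to 706 with a median of 239 (log2 difference 0.52, edgeR adjusted p = 0.224); 706 was the value of p45, and the other 10 high insulin libraries had at most 317. Slc25a34, a mitochondrial carrier gene, was not on these lists and had 52.8, 48.8 and 53.6 CPM against 9.69 to 31.7 with a median of 14.5 (log2 difference 1.65).

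Calls among genes of fat and sterol synthesis were mostly lower. In the list of 20 tested fatty acid synthesis genes, 3 were lower (Acly, Thrsp and Fads1) and 2, the triglyceride genes Dgat2 and Lpin1, were higher (25% called against 3.68% of all genes), with a list median of -0.37. Acly and Thrsp passed in each fit that left out 1 library, while Fads1 and Dgat2 did not pass without p32, p33 or p34, nor Lpin1 without p32 (highest edgeR adjusted p 0.257), so that without p32 the list held 0 higher and 2 lower genes. Acly, ATP citrate lyase, which makes cytosolic acetyl-CoA, had 3.97, 3.23 and 6.94 CPM at low insulin and 7.06 to 25.3, with a median of 15.7, at high insulin (log2 difference -1.69, SE 0.29, edgeR adjusted p = 0.000121). Thrsp, Spot 14, a nuclear protein of lipogenic tissues, had 12.6, 10.3 and 11.5 CPM against 16.1 to 59.9 with a median of 41.9 (log2 difference -1.86, SE 0.36, edgeR adjusted p = 0.000697). Neither gene's groups overlapped in CPM, and the vehicle medians, 8.02 for Acly and 18.7 for Thrsp, lay near the lower end of the high insulin range. The Acly gap, 6.94 against 7.06, was narrow and was not read on the scaled counts that were tested. Slc25a1, the carrier that exports the citrate used by Acly, had 1.59, 1.83 and 2.36 CPM against 2.08 to 11.1 with a median of 5.78 (log2 difference -1.63) and did not pass without p32, p33, p34 or p50. Fasn, fatty acid synthase, had 16.8, 21.4 and 22.2 CPM, at the lower end of a wide high insulin range of 14.4 to 90 (log2 difference -1.48), and did not pass (edgeR adjusted p = 0.0900). Srebf1, the transcription factor of this pathway, had 18.4, 20.5 and 17.4 CPM against 9.05 to 32.5 with a median of 19.1 (log2 difference -0.13, edgeR adjusted p = 0.888), and Scd1 (-0.70) and Scd2 (-0.91) did not pass. Among 19 tested sterol genes, 2 were lower and 0 higher (10.5% called; list median -0.16). Cyp51 had 1.75, 2.11 and 2.51 CPM against 4.12 to 6.89 with a median of 5.15 (log2 difference -1.37), and Nsdhl fell by 1.01 on the log2 scale and did not pass without p33 or p34. Cyp51 overlaps Akap9 on the other strand, and the strand setting of the authors' counting is not stated in the labels, so reads of such pairs cannot be told apart. Fat cells between the fibres also make fat: without Car3, which muscle expresses too, 11 adipocyte markers summed to 248 to 312 CPM at low insulin, 293 to 494 at high insulin and 311 to 857 in vehicle muscle. Their part in the values of Acly, Thrsp, Fasn and Retn was not tested. Tecr, an enzyme of fatty acid chain elongation chosen after values were seen, had 331, 345 and 429 CPM against 549 to 800 with a median of 671 (log2 difference -0.89).

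Glucose genes were less uniform. Of 22 tested genes of glycolysis, 3 were higher and 0 lower (13.6% against 3.68% of all genes; list median 0.19). Pfkfb1, which makes and removes the fructose 2,6-bisphosphate that sets glycolytic rate, had 69.1, 65.4 and 64.4 CPM against 26.9 to 38 with a median of 32.9, with no overlap (log2 difference 0.99, SE 0.13, edgeR adjusted p = 4.98e-07), and it overlaps Apex2 on the other strand. Eno3, muscle enolase (0.58), and Gpi1 (0.31) rose as well and did not pass without p32, p33 or p34 (highest edgeR adjusted p 0.164). For both, the low insulin libraries lay inside the vehicle range, 4231 to 5199 CPM for Eno3 and 337 to 403 for Gpi1. Eno3 had 1767 to 3554 CPM at high insulin. In the insulin signalling list, 2 of 29 tested genes were higher and 1 lower (10.3% called against 3.68% of all genes; list median 0.04). Irs1 had 39.1, 35.3 and 40.8 CPM at low insulin and 16.1 to 26.9 at high insulin. All low insulin libraries lay above all others and below every vehicle library (63.1 to 109), and the difference was 0.80 on the log2 scale (SE 0.17, edgeR adjusted p = 0.00287). Slc2a4 had 444, 439 and 425 CPM against 255 to 365 with a median of 309 (log2 difference 0.45, SE 0.09, edgeR adjusted p = 0.00153). Tbc1d1, a protein that holds GLUT4 vesicles inside the fibre, had 31.5, 31.5 and 30.3 CPM against 48.4 to 80.7 with a median of 63 (log2 difference -1.04), close to the vehicle median of 35.3. These 3 calls held in each fit that left out 1 library. Irs2 had 30, 27.4 and 20.5 CPM against 4.99 to 23.4 with a median of 15.6 (log2 difference 0.76, edgeR adjusted p = 0.0847), and Insr (0.17), Pik3r1 (-0.03), Igf1 (0.41) and Hk2 (0.08) did not pass. Of 17 tested glycogen genes, 0 were called. Pygl, the liver form of glycogen phosphorylase and not a member of that list, had 1.11, 2.81 and 4.14 CPM at low insulin and 3.06 to 11.1 at high insulin (log2 difference -1.43, edgeR adjusted p = 0.0195), and did not pass without p32 or p33.

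Amino acid genes gave the highest share of calls in 1 direction among the pathway lists. Of 21 tested, 6 were higher and 0 lower (28.6% against 3.68% of all genes), with a median of 0.34. Gpt, alanine aminotransferase, which moves amino groups onto pyruvate for export to the liver, had 23.4, 20.4 and 19.2 CPM against 8.70 to 12.2 with a median of 10.9. The groups were well apart, with a log2 difference of 0.96 (SE 0.15, edgeR adjusted p = 1.28e-05). Dbt and Bcat2 act in the breakdown of branched-chain amino acids. Dbt had 45.9, 45.3 and 32.1 CPM against 20.5 to 28.2 with a median of 22.9 (log2 difference 0.75), and Bcat2 had 16.7, 18.6 and 16.8 against 6.22 to 14.1 with a median of 10 (0.78). At low insulin Bcat2 lay inside its vehicle range of 11 to 21.3 CPM, and Dbt lay above its vehicle range of 22.2 to 29.9. Slc7a8, an amino acid transporter gene, had 22.7, 19.1 and 20.5 CPM against 6.71 to 14.4 with a median of 10.8 (0.96). Got1, aspartate aminotransferase, rose by 0.65 on the log2 scale. Glul, glutamine synthetase, a known glucocorticoid receptor target, had 1637, 1634 and 1536 CPM against 648 to 1317 with a median of 869 and a vehicle range of 158 to 318 (log2 difference 0.81, SE 0.20, edgeR adjusted p = 0.00809). Glul did not pass without p32 or p33, nor Got1 without p32 (highest edgeR adjusted p 0.0784).

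**Figure D3:**
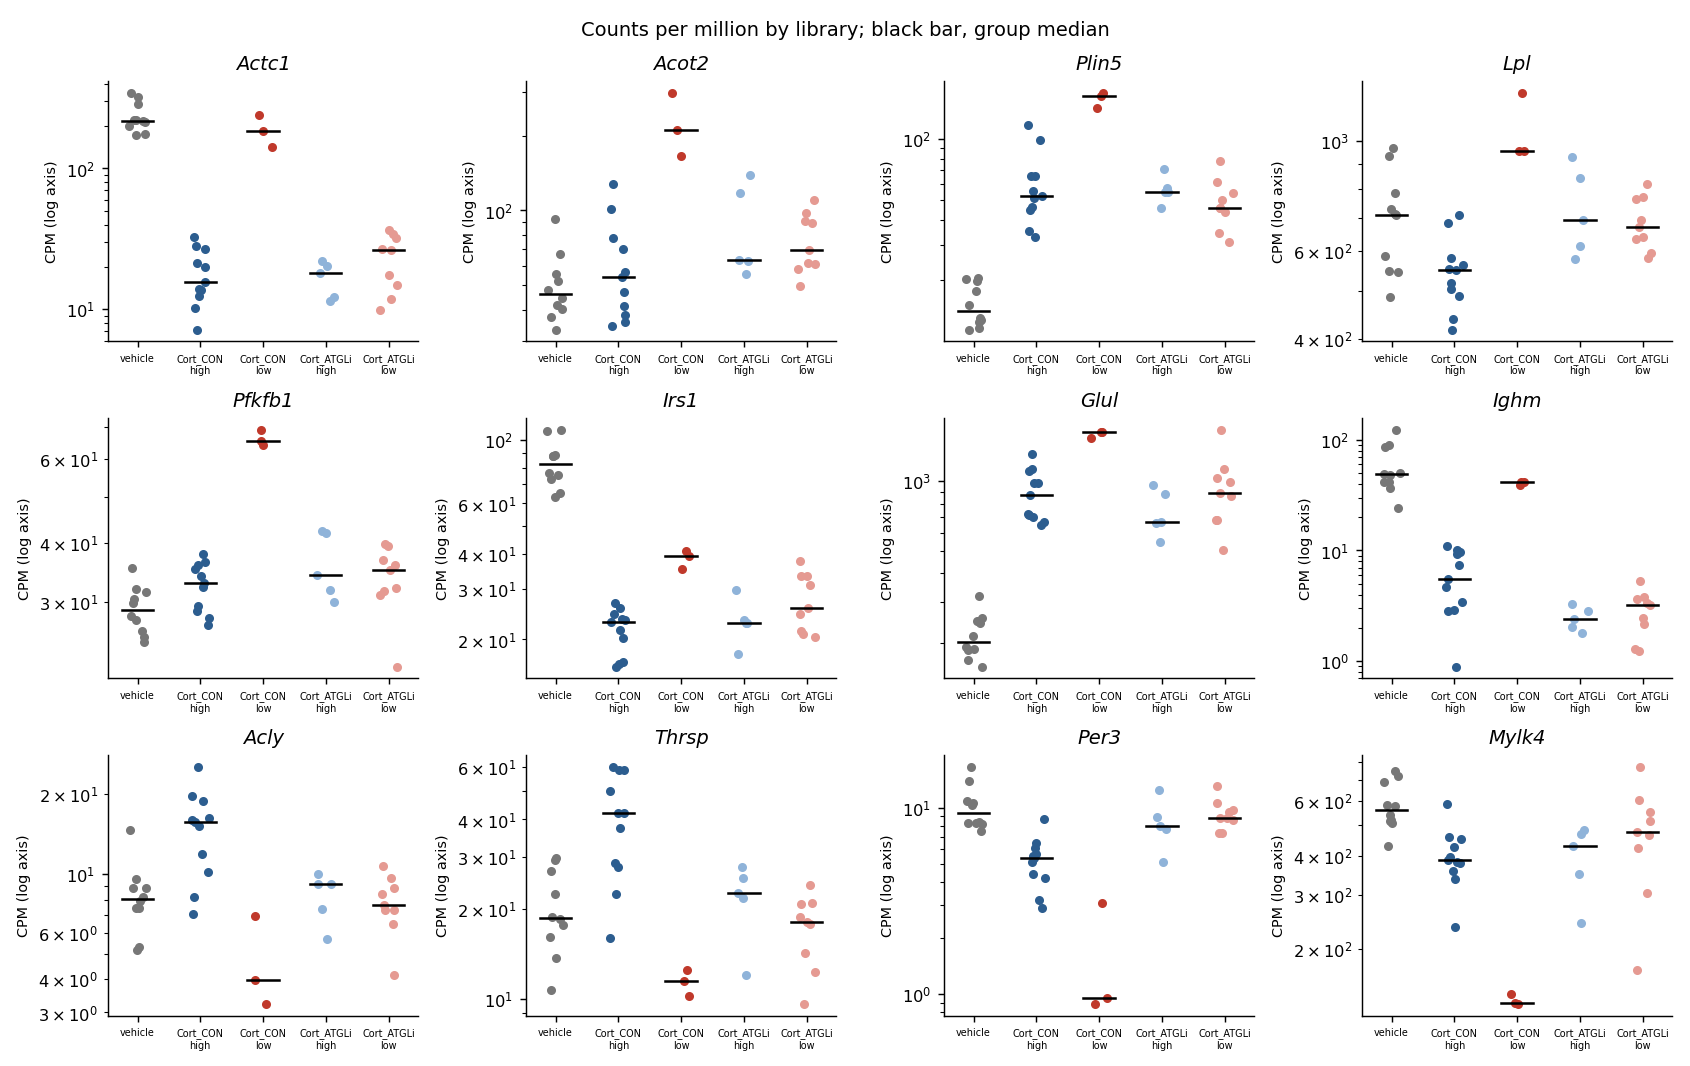
CPM on a log axis (y) for 12 genes in vehicle, Cort_CON and Cort_ATGLi libraries (x), with Cort groups divided at insulin 20; each point is 1 library and black bars are group medians. In Cort_CON the 3 low insulin libraries lie above all high insulin libraries for Actc1, Acot2, Plin5, Lpl, Pfkfb1, Irs1, Glul and Ighm and below all of them for Acly, Thrsp and Mylk4, while the Cort_ATGLi sets overlap for every gene drawn.

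Of 26 tested glucocorticoid receptor targets, 2 were higher (Glul and Klf15) and 0 lower (7.69% against 3.68% of all genes); 21 of the 26 differences were positive, and the median was 0.31. Fkbp5, a chaperone gene often used as a readout of glucocorticoid receptor activity, had 434, 435 and 435 CPM at low insulin, 230 to 352 at high insulin and 19.6 to 41.8 in vehicle muscle. The groups did not overlap, but the gene did not pass over all genes (log2 difference 0.57, SE 0.19, edgeR adjusted p = 0.0909). Mt2, a metallothionein gene, had 1149, 1139 and 1133 CPM, and 2 high insulin libraries were near or above these, p35 at 1112 and p45 at 1833 (log2 difference 0.91, edgeR adjusted p = 0.501). Tsc22d3 (GILZ) had 288, 281 and 247 CPM against 219 to 331 with a median of 254, a log2 difference of 0.04. Mt1 (0.94), Lcn2 (0.96) and Mstn (-0.03) did not pass either.

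Of 24 tested FoxO targets and atrophy ligases, 3 were higher, Trim63, Klf15 and Bnip3, and 0 lower (12.5% called against 3.68% of all genes; list median 0.08), and none of these 3 passed in all 14 fits that left out 1 library (highest edgeR adjusted p 0.311). Trim63 had 1638, 1975 and 2309 CPM at low insulin. Among the high insulin libraries, p45 had 2682 and p35 1421, and the lowest had 472, so the groups overlapped (log2 difference 1.04, SE 0.30, edgeR adjusted p = 0.0367). DESeq2 did not call Trim63. Fbxo32, the other ligase, had 503, 750 and 714 CPM inside a range of 293 to 1530 (log2 difference 0.06), and Foxo1 had 223, 217 and 236 against 94.9 to 232 with a median of 147 (log2 difference 0.53, edgeR adjusted p = 0.210). Klf15, a glucocorticoid-induced transcription factor of amino acid breakdown, had 47, 42.1 and 40.9 CPM against 13.3 to 34 with a median of 25.4 (log2 difference 0.81), with no overlap, and did not pass without p32, p33 or p34.

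Sequence from RefSeq is shown for 4 called genes, the ligase Trim63, the clock gene Per3, Klf15 and Irs1, because each holds a known kind of regulatory element just upstream. Each run is the 250 bases before the RefSeq gene start, on the gene's own strand, in build GRCm38.p6. Capitals in Trim63 mark a palindromic glucocorticoid receptor element (GAACA and TGTTC with 3 bases between them) and, after it, a FoxO element (GTAAACA, here on the opposite strand). Capitals in Per3 mark the D-box TTATGTAA, which Nfil3 and the factors Dbp, Tef and Hlf bind, and those in Klf15 and Irs1 mark the E-box CACGTG, which Clock with Arntl and Bhlhe41 bind.
Trim63, chr4:134314870-134315119, plus strand: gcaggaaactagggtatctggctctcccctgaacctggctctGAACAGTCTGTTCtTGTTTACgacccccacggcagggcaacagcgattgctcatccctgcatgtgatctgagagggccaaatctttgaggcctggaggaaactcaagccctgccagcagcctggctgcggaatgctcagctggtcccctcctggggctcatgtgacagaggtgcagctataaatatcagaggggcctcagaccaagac
Per3, chr4:151044666-151044915, minus strand: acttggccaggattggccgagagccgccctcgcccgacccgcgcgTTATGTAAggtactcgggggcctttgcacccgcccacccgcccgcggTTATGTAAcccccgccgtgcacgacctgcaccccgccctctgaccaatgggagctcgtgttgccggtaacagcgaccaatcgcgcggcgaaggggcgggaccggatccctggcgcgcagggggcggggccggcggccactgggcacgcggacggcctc
Klf15, chr6:90462326-90462575, plus strand: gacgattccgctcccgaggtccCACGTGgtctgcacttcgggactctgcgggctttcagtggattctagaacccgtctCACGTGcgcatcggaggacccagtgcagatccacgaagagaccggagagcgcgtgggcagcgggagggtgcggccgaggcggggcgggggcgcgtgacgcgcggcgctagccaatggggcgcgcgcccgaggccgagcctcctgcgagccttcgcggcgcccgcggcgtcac
Irs1, chr1:82291440-82291689, minus strand: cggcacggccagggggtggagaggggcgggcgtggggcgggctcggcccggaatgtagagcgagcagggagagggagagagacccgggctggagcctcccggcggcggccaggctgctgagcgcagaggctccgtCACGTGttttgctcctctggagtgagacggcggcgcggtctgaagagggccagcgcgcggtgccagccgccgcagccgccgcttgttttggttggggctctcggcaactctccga

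On both strands and with no overlap between the motifs in these runs, the glucocorticoid element was present in 13 of 32851 RefSeq promoters of this length (0.0396%), the FoxO element in 3.17%, the D-box in 0.819% and the E-box in 6.02%. In Trim63 the glucocorticoid element begins 208 bases and the FoxO element 194 bases before the gene start. Per3 holds the D-box at 205 and again at 158 bases, Klf15 the E-box at 228 and 172 bases, and Irs1 the E-box at 115 bases. Of 85 called genes in the tables behind this text, 65 matched a RefSeq promoter by symbol; 7 of these held the E-box and 1 each the D-box, the FoxO element and the glucocorticoid element. A match describes letters only and was not tested against the expression differences.

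Genes of the circadian clock, the daily oscillator in which Clock and Arntl switch on their own repressors, changed in both directions. Of 19 tested, 2 were higher and 4 lower (31.6% against 3.68% of all genes; list median -0.31). Per3, a repressor arm gene, had 0.954, 3.09 and 0.886 CPM at low insulin and 2.91 to 8.73, with a median of 5.37, at high insulin. Only p33 reached into the high insulin range, and vehicle muscle had 7.51 to 16.5 CPM (log2 difference -1.69, SE 0.29, edgeR adjusted p = 0.000116). Nfil3, the repressor that binds D-boxes, had 108, 86.9 and 98.5 CPM against 40.1 to 70.8 with a median of 51.2 and a vehicle range of 8.72 to 17.3 (log2 difference 0.79, SE 0.17, edgeR adjusted p = 0.00165). Bhlhe41 had 21.1, 23.8 and 20.5 CPM against 27.8 to 46 with a median of 35.7 (log2 difference -0.78). Nr1d2 (-0.62), a nuclear receptor of the clock, was lower and Clock (0.55) was higher. Per3, Nfil3 and Bhlhe41 passed in each fit that left out 1 library, while Nr1d2 was lost without p34 and Clock without p32 or p34 (highest edgeR adjusted p 0.237). Arntl (0.91), Per1 (0.28), Per2 (-0.12), Nr1d1 (-0.48) and Dbp (-0.31) did not pass. Against the 5 neighbouring title numbers, 0 clock genes were higher and 2 lower. Calls over all 12592 genes also fell there, from 464 to 237. Fewer genes were called for fatty acid synthesis (2, both lower), lipid droplets (2), autophagy (2), glycolysis (1) and the integrated stress response (1). FoxO targets held 1 call, and glucocorticoid receptor targets and interferon genes held 0. Amino acid genes kept 6 higher, and insulin signalling genes 2 higher and 1 lower. The time of day of collection is not given for any library.

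Muscle structure and other lower genes included several with no overlap. Mylk4, a kinase gene of the myosin light chain kinase family, had 134, 144 and 134 CPM at low insulin, 237 to 584 at high insulin and 428 to 746 in vehicle muscle (log2 difference -1.58, SE 0.28, edgeR adjusted p = 0.000282). Mylk2, the skeletal muscle myosin light chain kinase, had 377, 422 and 399 CPM against 515 to 658 with a median of 561 (log2 difference -0.58), inside the vehicle range of 297 to 445. Mss51, a mitochondrial gene of fast fibres, had 73, 95.5 and 92.5 CPM, while 10 of the high insulin libraries had 345 to 524 and p45 had 49.4. The difference was -2.27 on the log2 scale (SE 0.56, edgeR adjusted p = 0.0109), and it did not pass without p32, p33 or p34. Otub2, a deubiquitinase gene, had 8.58, 8.16 and 9.16 CPM, with 20.6 to 29.2 in 10 high insulin libraries and 6.63 in p45 (log2 difference -1.44). Pmepa1, a brake on transforming growth factor beta signalling, had 28.4, 25.7 and 22.2 CPM against 33.3 to 73.4 with a median of 55.6 (log2 difference -1.17). Tfeb, the transcription factor of lysosome genes, had 30, 30.1 and 31.2 CPM against 42.4 to 52.4 with a median of 48.8 and a vehicle median of 30.9 (log2 difference -0.71, SE 0.11, edgeR adjusted p = 4.39e-05). Of 25 tested autophagy and lysosome genes, 2 were higher (Ulk1 and Bnip3) and 2 lower (Tfeb and Becn1), 16% called against 3.68% of all genes, and Tfeb alone passed in all fits that left out 1 library. Mib1, an E3 ligase of Notch ligands, fell by 1.18 on the log2 scale and did not pass without p32 or p33; it overlaps Mir133a-1hg on the other strand. Hectd2os (-1.76) is antisense to Hectd2, and its reads may belong to either gene.

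**Figure D4:**
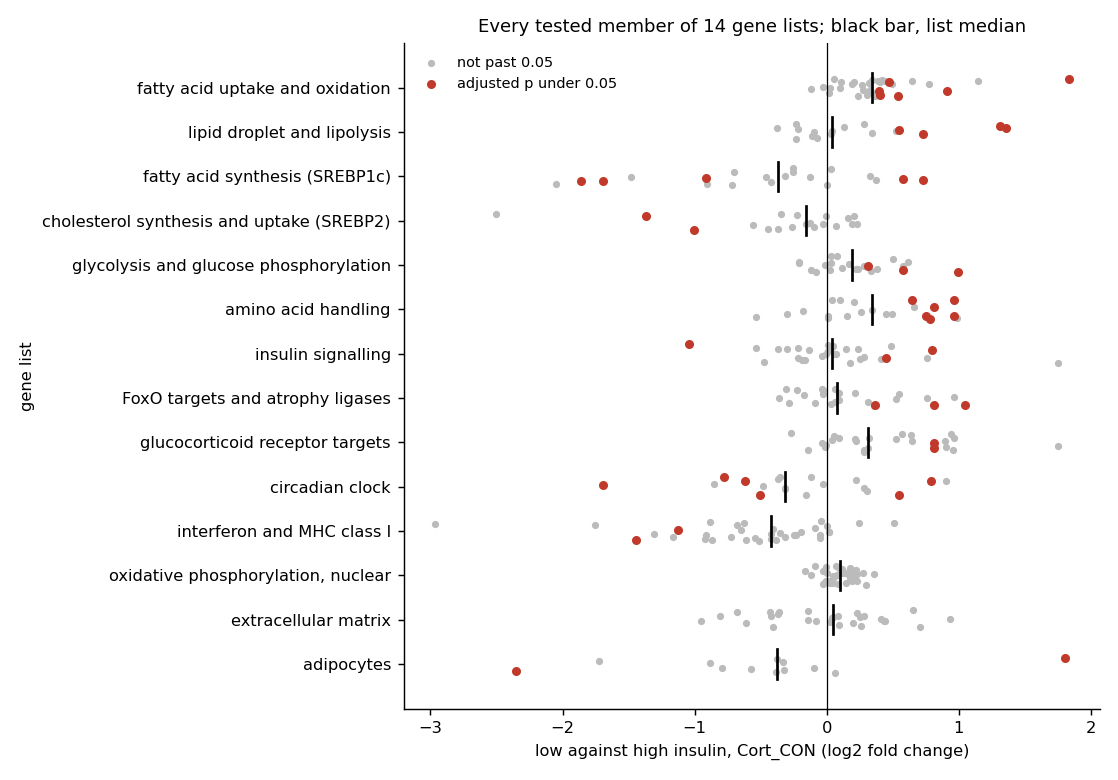
Log2 difference of low against high insulin in Cort_CON (x axis) for each tested member of 14 gene lists (y axis); red points have an adjusted p under 0.05 and black bars are list medians. Fatty acid uptake and oxidation and amino acid handling hold red points to the right of 0 only (6 each), interferon genes 2 to the left only, and oxidative phosphorylation and extracellular matrix none.

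Several groups held no calls at these depths. None of 41 nuclear oxidative phosphorylation genes (median 0.10), 75 cytosolic ribosomal proteins (-0.10), 28 extracellular matrix genes (0.05), 27 heat shock and chaperone genes (0.05) or 14 slow fibre sarcomere genes (0.35) passed. The unadjusted test gave 1915 genes with p under 0.05 over the whole table. In the list of 35 interferon and MHC class I genes, 2 were lower (Ifit1 and Rtp4), 0 were higher (5.71% called against 3.68% of all genes) and 5 differences were positive, with a median of -0.42. Ifit1 had 1.75, 2.67 and 0.591 CPM against 1.89 to 7.07 with a median of 4.39, so the groups overlapped, and neither gene passed without p34. Of 16 integrated stress response genes, Atf4 (0.46) and Ppp1r15a (0.62) were higher (12.5% called against 3.68% of all genes), 8 differences were positive and the median was -0.01. Atf4 did not pass without p32 or p33, nor Ppp1r15a without p32, p33 or p34.

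Markers of other cell types were read because a piece of muscle also holds fat, vessels, tendon and blood cells; in such bulk tissue, fewer cells of a type and less RNA per cell cannot be told apart. Ighm, the heavy chain of immunoglobulin M and a B cell marker, had 42, 39.4 and 41.4 CPM at low insulin, 0.892 to 11 at high insulin and 24.4 to 123 in vehicle muscle (log2 difference 2.70, SE 0.41, edgeR adjusted p = 2.55e-05). Of the 25 B and plasma cell markers listed, only 4 were among the genes tested. The 3 besides Ighm (Igkc, Ighg2c and Mzb1) did not pass and had at most 2.07 CPM in the low insulin libraries, with Igkc at 0 in p34. No listed T or NK cell marker was among the genes tested. Macrophage markers summed to 131 to 158 CPM at low insulin and 93.4 to 177 at high insulin, and 0 of 15 passed. Of 12 adipocyte markers, Car3 was higher and Retn lower (16.7% called against 3.68% of all genes). Differences were positive for 2 of the 12, and the list median was -0.38. Retn, which encodes resistin, a hormone of mouse fat cells, had 1.91, 2.95 and 3.99 CPM against 8.95 to 20.4 with a median of 15 (log2 difference -2.35, SE 0.58, edgeR adjusted p = 0.0104), and did not pass without p32 or p33 (highest edgeR adjusted p 0.118). Scx, a tendon transcription factor, had 8.42, 7.74 and 10 CPM against 19.9 to 45.2 with a median of 30 (log2 difference -1.82, SE 0.24, edgeR adjusted p = 1.04e-06). Vehicle muscle had 12.9 to 22.6 CPM of Scx, below that median. The tendon list summed to 284 to 631 CPM in vehicle muscle and 77.6 to 254 at high insulin. Between vehicle and high insulin muscle, Scx thus went the other way from its list. At low insulin the list summed to 114 to 164 CPM. The other 8 tendon markers did not pass (11.1% of the list called against 3.68% of all genes), and the list median was -0.36. Scx lies within Bop1 on the other strand. Endothelial, satellite, Schwann, smooth muscle, erythroid, neutrophil and fibro-adipogenic lists held 0 calls each.

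The same division in Cort_ATGLi mice gave no calls. Insulin there was 2.19 to 19.5 in 9 libraries and 28.5 to 36 in 5, and all 14 mice were labelled nondiabetic. No gene passed in that comparison (0 of 12592, 0%; edgeR's quasi-likelihood test, 698 genes at an unadjusted p under 0.05, and 0 by DESeq2 and by limma voom). The 269 genes higher at low insulin in Cort_CON had a median log2 difference of -0.04 in Cort_ATGLi, with 115 of them positive, and the 195 lower genes a median of -0.03, with 115 of them negative. Actc1 differed by 0.40 there and Acot2 by -0.28, Plin5 by -0.30, Acly by -0.14 and Per3 by 0.09. Some genes still varied within that diet. The Cort_ATGLi library with the lowest insulin, p41 (2.19), had 16.5 CPM of Mss51, 6.41 of Otub2 and 34.4 of Slc39a14. These lay at or beyond the levels of the low insulin Cort_CON libraries. Its Actc1 (26.5 CPM) and Car3 (369 CPM) lay within or below the high insulin Cort_CON ranges. The Cort_ATGLi libraries next lowest in insulin, p48 (5.67) and p40 (7.72), had 368 and 395 CPM of Mss51. Their Otub2 was 25.4 and 20.3 CPM and their Slc39a14 4.89 and 5.44 CPM, unlike p41. The high insulin Cort_CON library p45 (29.3) had 49.4 CPM of Mss51, 6.63 of Otub2 and 27.5 of Slc39a14. The difference between the diets was tested directly as an interaction and passed for 193 genes (1.53%), 124 of them with the higher value in Cort_CON. These included 106 of the 269 higher and 60 of the 195 lower genes, a count that is raised because those genes were picked for their difference in Cort_CON. For Actc1 the interaction was 2.93 on the log2 scale (edgeR adjusted p = 8.64e-05), for Acot2 2.12 (0.00373), for Plin5 1.66 (0.00450) and for Per3 -1.78 (0.00250). For Irs1 (edgeR adjusted p = 0.210), Glul (0.351), Slc39a14 (0.141) and Dupd1 (0.125) the interaction did not pass, so a difference between the diets was not shown for them. Glucose was 95 to 138 in the Cort_ATGLi mice and 131 to 407 in the Cort_CON mice with high insulin.

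**Figure D5:**
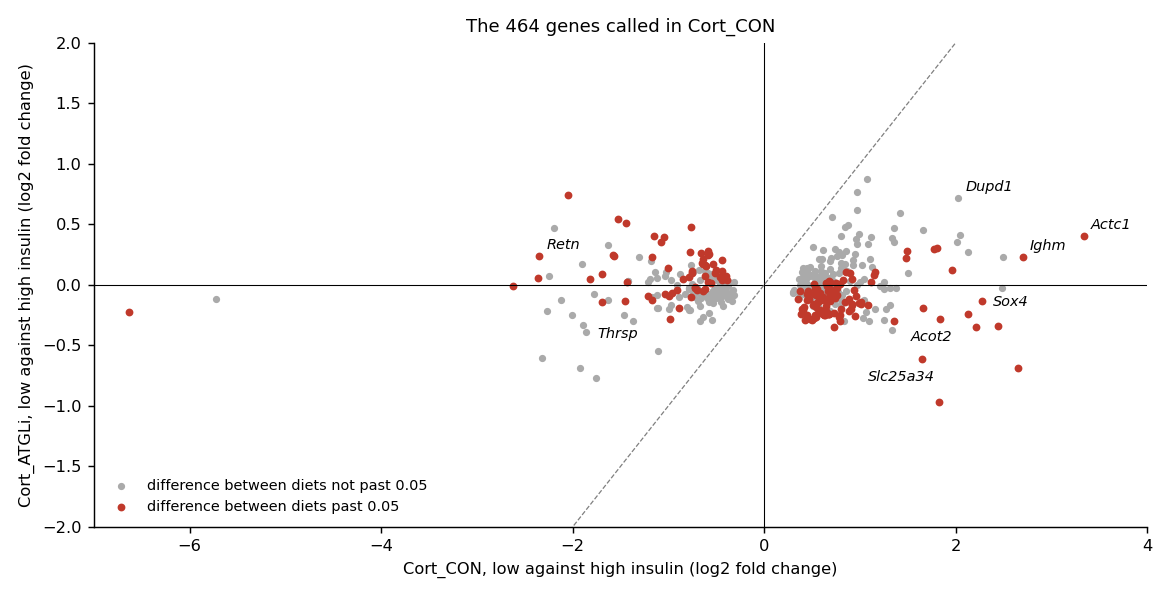
Log2 difference of low against high insulin in Cort_CON (x axis) and in Cort_ATGLi (y axis) for the 464 genes called in Cort_CON; red points have an interaction adjusted p under 0.05, and the dashed line marks equal differences. Points lie along the horizontal axis, with Cort_ATGLi values between -0.97 and 0.87.

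Disease state was read beside insulin because p32 and p33 were nondiabetic. With disease state as a term in the model, 195 genes were higher and 122 lower at low insulin. Among nondiabetic mice alone (2 low against 3 high), 43 were higher and 23 lower, and among diabetic mice alone (p34 against 8, the lone library being assumed to vary like the other groups) 11 were higher and 2 lower. Actc1, Acot2, Rgs2, 6430548M08Rik, Gpr157, Pfkfb1 and Prkca passed in all of these. In the nondiabetic mice the log2 difference was 3.36 for Actc1 and 2 for Acot2, and for p34 against the diabetic mice it was 3.01 and 2.12. Gpr157, an orphan receptor gene, had 96, 101 and 106 CPM against 33.6 to 63 with a median of 45.6, and Prkca, protein kinase C alpha, had 101, 110 and 110 against 44.2 to 76.5 with a median of 49.8; both were named after their values were seen, and Prkca overlaps Apoh on the other strand. Relative to vehicle muscle, 113 of the 269 higher genes had a vehicle mean beyond the high insulin mean, on the side away from the low insulin mean, 109 had it between these means and 47 beyond the low insulin mean. For the 195 lower genes these counts were 71, 90 and 34.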

How the data were processed

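Male mouse gastrocnemius RNA was measured in 48 libraries, of which 14 carry the compared groups. Raw counts per gene (14125 genes) were deposited by the authors, on build GRCm38 per the submitters' processing notes, which also name R 3.6.1 and DESeq2 1.24.0; for the aligner, annotation and strand setting nothing is given in the sources used here. Counts were even numbers in 47 of 48 libraries, so a setting with halved counts was tried. The smallest total of any gene over the 48 libraries was 144 counts, so genes below that were already absent from the deposited table. A second deposited table, of normalized signal, equals the authors' counts divided by 1 factor per library and was only checked.

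From the counts, edgeR 4.0.16 (R 4.3.3) was run with TMM scaling, a filter at 10 counts (12592 genes kept, 1533 removed), all 48 libraries in 6 groups and the robust quasi-likelihood test, adjusted by Benjamini-Hochberg (0.05); the code was tested on simulated data. CPM are counts per 1000000 of the library's deposited total, are not per length and do not compare genes. Depths were 10585234 to 22921262 counts in the 14 libraries. Alternatives were DESeq2 1.42.0, limma 3.58.1 voom, other scaling, filters, insulin divisions and disease terms, and leaving out each library. Named genes are the 12 largest rises and 12 largest falls among called genes that have an established symbol and average 5 CPM or more, a set of insulin, fat and glucocorticoid genes, and the 2 smallest p of each list with 25% called; other genes named were called list members or were chosen after their values were seen. The comparison and the lists were chosen with earlier results of these data known, while the insulin label alone divided the members. The values of 1 gene counted in the lists are not reported here.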

Additional observations from a re-analysis of the deposited data

Results flagged for a closer look

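In 21 named genes the low against high insulin difference in Cort_CON differed from that in Cort_ATGLi by a direct test (interaction in edgeR's quasi-likelihood test, adjusted p under 0.05; log2 difference in Cort_CON minus that in Cort_ATGLi). It was above 0 for Actc1 (2.93), Ighm (2.47), Sox4 (2.41), Slc25a34 (2.26), Acot2 (2.12), Plin5 (1.66), Car3 (1.5), Rgs2 (1.47), Car9 (1.26), Cbr2 (1.22), Nfil3 (1.09), Gpt (1.05) and Dbt (0.73). It was below 0 for Retn (-2.59), Scx (-1.87), Mylk4 (-1.82), Per3 (-1.78), Acly (-1.55), Otub2 (-1.46), Mib1 (-1.4) and Pmepa1 (-1.04). The largest adjusted p among them was 0.0435, for Ighm, and most of these genes were named for their difference in Cort_CON.

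In vehicle muscle (EtOH_CON, 10 libraries), single libraries lay far from the rest for 9 of 51 gene and group combinations tested. Chance gives about 1 in 20 for independent, normally distributed values. These genes were read in the same 10 libraries and are not independent, so that rate is no measure for the 9. The library p10 was high for 7 genes. It had 14.7 CPM of Acly (median of the group 8.02), 68.2 of Fasn (23.6), 189 of Scd1 (51.6) and 28.1 of Retn (7). It also had 38.7 CPM of Irs2 (22.1), 86.5 of Mt1 (37.9) and 104 of Mt2 (31.1). Hk2 was low in p01 (163 CPM, median 295), and Tsc22d3 was high in p12 (254, median 158). These libraries serve as the vehicle reference and are on neither side of the insulin comparison. They are part of the same fit, so they also add to the estimate of spread for these genes.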

How the results depend on the processing

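All 464 called genes kept their direction in every setting run, except 1 gene when insulin was divided at 30. The counts of higher and lower genes (269 and 195) stayed within 1.5 times under DESeq2 (300 and 239), limma voom (288 and 133, so 68.4% of calls were higher against 58.0%), RLE scaling, no filter on low counts, halved counts, Cort_ATGLi as 1 group, and comparison with the 9 libraries above 30. Lower genes numbered 127 in a fit of the 14 libraries alone and 122 with disease state as a term. Among nondiabetic mice 43 genes were higher and 23 lower, and among diabetic mice 11 and 2, with fewer samples in each. Dividing insulin at 30 gave 80 and 40, log2 insulin as a continuous term 123 and 70, and the 5 neighbouring title numbers, chosen after seeing the data, 134 and 103. Leaving out 1 Cort_CON library gave 109 (without p32) to 301 (without p37) higher and 77 (without p32) to 201 (without p37) lower genes, and 137 called genes passed in all 14 such fits. In Cort_ATGLi, leaving out 1 library gave 0 to 3 higher genes (1 without p23, 3 without p39). The glucose difference ranged from -121 (without p34) to -53.9 (without p33). The cause of these shifts, the smaller number of samples included, was not tested. No paired analysis was possible because the low and high insulin libraries share no replicate number. With 3 low insulin libraries, differences in genes of few counts may not be detectable.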
